A study of Homo sapiens with 48 samples.

Results

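The genes described here are those of the unfolded protein response and the integrated stress response, a set of 36 named genes, followed in BEAS-2B cells, an established human bronchial epithelial line, after drugs that raise cyclic AMP. They were taken by name: probe sets carrying a member's symbol alone were kept, and for each gene the 1 with the highest mean signal over all 48 arrays was used. Of the 36 listed genes, 35 had such a probe set, out of 19775 genes in all, and 34 passed the filter on low signal and entered the tests, against 11865 genes in all. SYVN1, the ubiquitin ligase of ER-associated degradation, was measured only by a probe set shared with a microRNA gene, and CHAC1, a glutathione-degrading enzyme, had a median signal of 131, below the filter at 154. Cells were kept for 24 h in keratinocyte serum-free medium without its growth factor and pituitary extract supplements, and then received vehicle, the combination Ind/GSK (10 nM indacaterol and 10 nM GSK 256066) or 10 nM GS-5759 for 1, 2, 6 or 18 h. Indacaterol is a long-acting agonist of the beta2-adrenoceptor, GSK 256066 inhibits phosphodiesterase 4, the enzyme that breaks down cyclic AMP, and GS-5759 is a single molecule that carries both activities. Each of the 12 treatment-by-time groups held 4 arrays, numbered as replicates 1 to 4. Whether replicates were separate cultures is not in the labels, and the p-values therefore speak only to array-to-array variation, part of which may be technical. All groups come from 1 cell line.

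The unfolded protein response is the programme by which a cell adjusts the endoplasmic reticulum (ER) to its load of unfolded protein. The sensors IRE1 (gene ERN1), PERK (EIF2AK3) and ATF6 sit in the ER membrane. IRE1 splices the mRNA of the transcription factor XBP1, ATF6 is cut to release a transcription factor, and PERK phosphorylates the translation factor eIF2 alpha (EIF2S1). That phosphorylation slows translation in general, favours translation of ATF4, and is shared with other kinases in the integrated stress response, with ATF3, DDIT3 (CHOP) and amino acid genes among its downstream genes. The best known products of the programme are ER chaperones such as HSPA5 (BiP) and proteins that remove misfolded clients from the ER.

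The arrays were alike in RNA quality: the 3' to 5' signal ratio of ACTB lay between 0.93 and 1.14, and that of GAPDH between 0.85 and 0.95. Brightness varied, with the 75th percentile of signal between 519 and 613. Its group mean was lowest with Ind/GSK at 1 h, 547, and highest with vehicle at 1 h, 596. All replicate 3 arrays stood apart. KRT14, a keratin of basal epithelial cells, read 186879 to 441003 in the 12 replicate 3 arrays and 13.3 to 31.9 in the other 36, and KRT5, its partner keratin, read 29513 to 36309 against 108 to 277. The summed signal of the 11 epithelial markers measured was 258500 to 510800 in replicate 3 and 10696 to 24282 elsewhere. Of these markers, 8 were above the filter, among them KRT8 and KRT18 in every array. So were 3 of 8 fibroblast markers, 1 of 6 leukocyte and 1 of 6 endothelial markers. The filter used the mean over all arrays, and KRT14 passed through replicate 3 alone. Outside replicate 3, KRT14 lay below the filter signal of 154, and the medians of KRT5 and KRT19 were 160 and 0.036. Over all arrays the fibroblast marker COL1A1 had a median of 9402.5, beside 5049.5 for KRT8 and 8197.1 for KRT18. The count of epithelial markers therefore holds KRT14 only through replicate 3. Outside replicate 3 the medians of KRT8, KRT18, KRT7, SFN, ITGB4 and CDH1 were 4899.6, 8113.1, 616.76, 1281.3, 644.16 and 249.92, above the filter signal. Those of EPCAM and LAMB3 were 67.4 and 89.1, below it. Because replicate 3 stood apart, results are given over all 4 replicates and, where a call of the unblocked fit differs, without replicate 3. Same-numbered arrays deviated together in all 264 pairs (correlations 0.22 to 0.95), so a fit with the replicate number as a block is given beside the unblocked fit where it changes a call. The part of the replicate 3 difference in the results below was not tested.

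Promoters of 4 members are shown, picked by hand as examples from a larger number of members with matches. Each carries, letter for letter, 1 or more elements bound by factors of these responses or of cyclic AMP signalling: the ER stress element (CCAAT, then 9 bases, then CCACG), its shorter form ER stress element II (ATTGG, then 1 base, then CCACG), the composite site of ATF4 and C/EBP factors (TGATGCAA), and the cyclic AMP response element (TGACGTCA, or its part TGACG). Each is the 250 bases before the gene's start in RefSeq (GRCh38.p14), read 5′ to 3′ on the gene's strand, with matches on either strand in capitals.

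HSPA5, chr9:125241344-125241593, minus strand: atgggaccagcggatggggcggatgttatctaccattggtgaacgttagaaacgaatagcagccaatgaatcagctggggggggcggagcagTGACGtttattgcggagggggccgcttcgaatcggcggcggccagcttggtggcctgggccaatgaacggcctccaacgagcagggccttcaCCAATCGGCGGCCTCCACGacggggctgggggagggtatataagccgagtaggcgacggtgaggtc

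HERPUD1, chr16:56931892-56932141, plus strand: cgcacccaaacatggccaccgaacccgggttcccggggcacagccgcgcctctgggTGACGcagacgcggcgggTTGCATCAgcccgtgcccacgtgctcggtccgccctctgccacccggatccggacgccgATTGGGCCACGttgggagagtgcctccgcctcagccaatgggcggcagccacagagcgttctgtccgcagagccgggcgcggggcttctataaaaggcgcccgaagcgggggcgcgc

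CREB3L2, chr7:138002087-138002336, minus strand: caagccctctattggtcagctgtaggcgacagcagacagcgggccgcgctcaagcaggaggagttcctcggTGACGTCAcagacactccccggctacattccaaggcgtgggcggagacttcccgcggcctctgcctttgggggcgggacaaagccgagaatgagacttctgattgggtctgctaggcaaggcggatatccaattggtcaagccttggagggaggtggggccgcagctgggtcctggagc

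PPP1R15A, chr19:48872171-48872420, plus strand: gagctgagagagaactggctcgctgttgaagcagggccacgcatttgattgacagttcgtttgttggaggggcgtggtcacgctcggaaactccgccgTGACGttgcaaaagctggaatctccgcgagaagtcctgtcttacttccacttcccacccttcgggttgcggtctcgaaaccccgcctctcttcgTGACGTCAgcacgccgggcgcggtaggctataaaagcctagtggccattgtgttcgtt

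Of the 36 listed genes, 35 matched a promoter of 300 bases (250 before and 50 after the start); PDIA3 is the other. The ER stress element was found in 6 of these 35, HSPA5, HSP90B1, CALR, CANX, CRELD2 and XBP1, and in 0.0769% of all 35116 promoters searched. Element II was found in HYOU1, SDF2L1 and HERPUD1 and in 0.0541% of all promoters, and the ATF4 and C/EBP site in HERPUD1, PPP1R15B and CHAC1 and in 0.866%. The XBP1 element core TGACGTGG, which overlaps TGACG, was found in HYOU1 and in 0.729%. The whole cyclic AMP response element was found in CREB3L2, 179 bases before the start, and in PPP1R15A, 58 bases before it, and in 1.85% of all promoters. Its part TGACG, which every whole element also contains, was found in 14 of 35 members and in 24.6% of all promoters. These are matches of letters, not measured binding. ERN1, EIF2AK3, DNAJB9 and ATF3 held none of these letters in this window. A single start per member was searched, so promoters at other starts of these genes were not read.

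In the unblocked fit both treatments were followed by a rise at 2 h in a small number of members. These were the sensor genes ERN1 and EIF2AK3, the degradation gene HERPUD1 and, with GS-5759, the co-chaperone gene DNAJB9. Most chaperones and the integrated stress response factors ATF4, DDIT3 and PPP1R15A were not called higher. ATF3, another factor of that response, had the largest 2 h differences among tested members, 0.93 and 1.08, and was called higher with the block only. With Ind/GSK, 3 of 34 tested members rose and 0 fell at 2 h (HERPUD1, EIF2AK3 and ERN1; limma, Benjamini-Hochberg adjusted p under 0.05 over all tested genes), against 1.69% of all tested genes called higher and 2.81% lower. With GS-5759 these 3 and DNAJB9 rose and 0 fell, 4 of 34, against 1.97% of all genes higher and 1.08% lower. At 6 h 0 members were called with Ind/GSK, where 5.01% of all genes were called and 8 members had an unadjusted p under 0.05, and 1 rose with GS-5759 (EDEM1; 1.26% of all genes higher). At 1 h 0 members were called with either treatment, with 2.47% of all genes called for Ind/GSK and 0.320% for GS-5759, and 5 and 2 members at an unadjusted p under 0.05. At 18 h 0 were called with either, with 0.0506% and 0% of all genes called and 0 members at an unadjusted p under 0.05. The median log2 difference of the members at 2 h was 0.01 with Ind/GSK and 0.04 with GS-5759, beside -0.05 and 0.00 for all tested genes, so the set as a whole stayed close to the rest of the genome while single genes moved. Both of the following settings ended 2 h calls. Averaging all probe sets of a gene left 0 members called with Ind/GSK and 2 with GS-5759 (DNAJB9 and ERN1), with HERPUD1 at 0.21 and 0.30 and EIF2AK3 at 0.20 and 0.18, and fitting the 8 arrays of a comparison alone left 0 and 1 (EIF2AK3). In bulk RNA of this kind, a change in the number of cells of a type and a change in RNA per cell cannot be told apart.

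**Figure D1:**
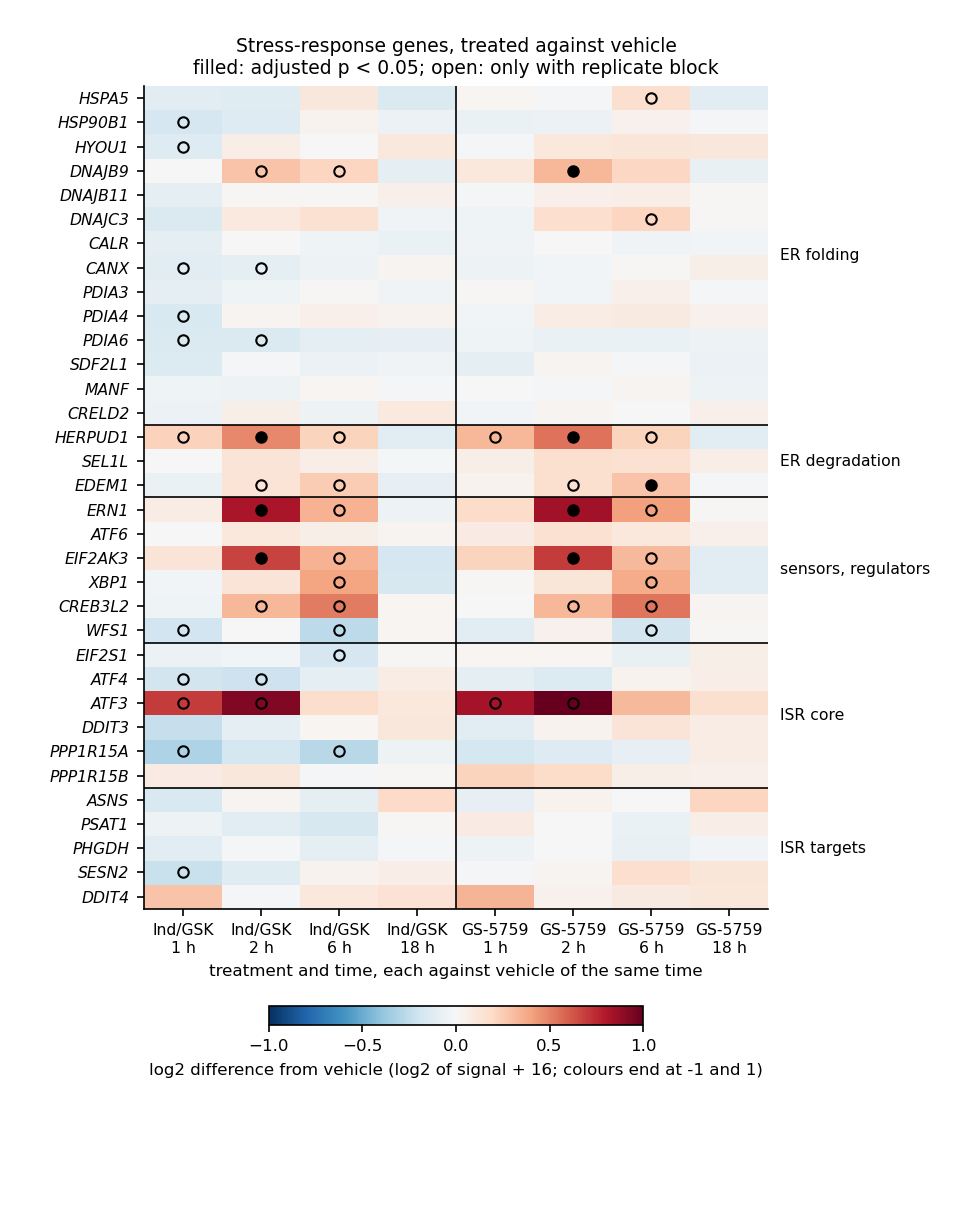
Log2 difference from vehicle of the same time (log2 of signal + 16; colour, from -1 to 1) for the 34 tested members, in rows by role, in the 8 comparisons of treatment and time, in columns. Filled circles mark adjusted p under 0.05 and open circles genes called only with the replicate block; the filled circles lie at 2 h, on HERPUD1, ERN1, EIF2AK3 and, for GS-5759, DNAJB9, and at 6 h on EDEM1 alone.

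With the replicate block the counts were larger, as they were for all genes. For Ind/GSK, 2 members rose and 9 fell at 1 h (1.99% of all genes higher and 20.4% lower in that fit), 7 rose and 3 fell at 2 h (4.60% and 10.0%), 7 rose and 3 fell at 6 h (5.53% and 16.5%), and 0 were called at 18 h (2.56% of all genes in either direction; 3 members at an unadjusted p under 0.05). For GS-5759, 2 rose at 1 h (1.19% of all genes), 7 rose at 2 h (6.46%), 8 rose and 1 fell at 6 h (7.48% and 5.39%), and 0 were called at 18 h (0.219% in either direction; 3 members at an unadjusted p under 0.05). The Ind/GSK arrays at 1 h were dimmer as a whole: the median log2 difference of all tested genes was -0.11, and it was 0.01 once each array was centred on its 75th percentile. The 9 members called lower there (HSP90B1, HYOU1, CANX, PDIA4, PDIA6, WFS1, ATF4, PPP1R15A and SESN2) are a share near that of all genes, and CANX turned from -0.11 to 0.01 with that centring. With it, 22 of 34 members lay above 0 at 1 h in place of 9.

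HERPUD1 encodes a membrane protein that organises the ER degradation complex. At 2 h its signal in replicates 1 to 4 was 3308, 3071, 3450 and 2922 with vehicle, 5006, 4385, 4495 and 3976 with Ind/GSK, and 5676, 4644, 4456 and 3984 with GS-5759. All treated arrays lay above all vehicle arrays, and the log2 difference was 0.48 ± 0.099 (SE) with Ind/GSK (adjusted p = 0.00177) and 0.55 ± 0.099 with GS-5759 (adjusted p = 0.000361), or 1.40-fold and 1.46-fold on the log2(signal + 16) scale. It was higher than vehicle in 4 of 4 replicates already at 1 h, by 0.23 and 0.33, and again at 6 h, by 0.23 and 0.22, which the block called (adjusted p = 0.014 and 0.0019 at 1 h, 0.012 and 0.022 at 6 h) and the unblocked fit did not. At 18 h the means were 2951 ± 264 (SD, n = 4) with vehicle, 2738 ± 148 with Ind/GSK and 2734 ± 300 with GS-5759, and the groups overlapped. The second HERPUD1 probe set, with a mean log2 signal of 4.51, was near the floor of the arrays and did not follow (-0.07 and 0.06 at 2 h).

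EDEM1, which extracts misfolded glycoproteins for degradation, was measured by 1 probe set. Its 6 h signal was 1345, 1499, 1251 and 1441 with vehicle, 1607, 1706, 1548 and 1738 with Ind/GSK, and 1640, 1745, 1478 and 1909 with GS-5759. Ind/GSK arrays lay above all vehicle arrays, while the replicate 3 array of GS-5759 lay within the vehicle range. The difference with GS-5759 was 0.28 ± 0.079 (adjusted p = 0.0459) and that with Ind/GSK 0.25 ± 0.079 (adjusted p = 0.0521, and 8.4e-05 with the block). The call for GS-5759 was lost without any of 6 arrays: vehicle replicate 1 (adjusted p = 0.11), 3 (0.198) or 4 (0.0587), or GS-5759 replicate 1 (0.0878), 2 (0.127) or 4 (0.175). It was also lost with 75th percentile centring (0.0995), quantile normalization (0.0991), no filter (0.0791) and averaging of probe sets (0.0543), while those scalings called 2 and 3 members with Ind/GSK at 6 h, EDEM1 among both. At 2 h EDEM1 was called with the block alone, by 0.14 (adjusted p = 0.037) and 0.16 (adjusted p = 0.014). SEL1L, the scaffold of the SYVN1 complex, was not called with either treatment at any time.

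EIF2AK3, the gene of PERK, read 1020, 1078, 947 and 1280 with vehicle at 2 h, 1982, 1348, 1900 and 1745 with Ind/GSK, and 1834, 1620, 1898 and 1678 with GS-5759. Every treated array was above every vehicle array. The log2 difference was 0.67 ± 0.11 with Ind/GSK (1.60-fold, adjusted p = 0.000158) and 0.70 ± 0.11 with GS-5759 (1.62-fold, adjusted p = 8.52e-05), and both calls held without replicate 3 (0.57 and 0.60, adjusted p = 0.00801 and 0.00385). At 6 h the differences were 0.35 and 0.32, called with the block (adjusted p = 0.011 and 0.032) and not without it. Its second probe set was dim (mean log2 signal 5.25) and lay the other way, at -0.27 and -0.35.

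ERN1, the gene of IRE1 alpha, had the largest difference from vehicle among members called without the block. At 2 h it read 410, 618, 331 and 581 with vehicle, 809, 1055, 527 and 1116 with Ind/GSK, and 784, 1166, 495 and 1180 with GS-5759. Replicate 3 had the lowest value in each group, and its treated arrays lay within the vehicle range, so the groups overlapped there although all 4 replicates were higher than their own vehicle array. The log2 difference was 0.82 ± 0.24 with Ind/GSK (adjusted p = 0.0339) and 0.84 ± 0.24 with GS-5759 (adjusted p = 0.0366), and with the block the adjusted p was 5.4e-08 and 2.7e-08. Without replicate 3 the differences were 0.88 and 0.94 (adjusted p = 0.000565 and 0.0002). In the unblocked fit the Ind/GSK call was lost without vehicle replicate 1 (adjusted p = 0.0919) or 3 (0.163), or Ind/GSK replicate 1 (0.0646), 2 (0.126) or 4 (0.127). The GS-5759 call was lost without vehicle replicate 1 (0.122) or 3 (0.171), or GS-5759 replicate 1 (0.0634), 2 (0.164) or 4 (0.17). The other ERN1 probe sets were also higher at 2 h, by 0.12 and 0.11 at 1 and by 0.23 and 0.35 at the other, and averaging the probe sets gave 0.39 with Ind/GSK (adjusted p = 0.0661). With no filter on low signal both calls were lost (adjusted p = 0.0556 and 0.0557). At 6 h ERN1 was higher by 0.35 and 0.41 (block adjusted p = 0.0083 and 0.0037, not called without the block), and at 18 h the vehicle mean of 551 ± 94.3 lay between 536 ± 128 with Ind/GSK and 557 ± 98.6 with GS-5759.

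CREB3L2, a membrane-bound transcription factor of the secretory pathway, showed differences of like size in each replicate number, called with the block and not without it. At 6 h its signal was 3944, 3870, 2581 and 4269 with vehicle, 5377, 5514, 4171 and 5830 with Ind/GSK, and 5516, 6047, 3820 and 5873 with GS-5759. Within each replicate the log2 difference was 0.45, 0.51, 0.69 and 0.45 with Ind/GSK and 0.48, 0.64, 0.56 and 0.46 with GS-5759, with means of 0.52 and 0.54. The adjusted p was 0.0656 and 0.103 in the unblocked fit, 1.2e-09 and 6.8e-10 with the block, and 0.000197 and 3.88e-05 in the unblocked fit without replicate 3. At 2 h it was higher by 0.33 with either treatment (adjusted p = 0.365 and 0.435, and 9.2e-06 and 7.7e-06 with the block), and it was called without replicate 3 (0.31 and 0.28, adjusted p = 0.0134 and 0.0262). At 1 h it differed by -0.05 and 0.00, and at 18 h the means were 4421 ± 692, 4447 ± 495 and 4486 ± 532 with vehicle, Ind/GSK and GS-5759. A second, weaker CREB3L2 probe set differed by 0.76 and 0.83 at 2 h and the other, dimmer still, by -0.23 and -0.16. CREB3L2 is the member whose promoter, printed above, holds the whole cyclic AMP response element, as does that of PPP1R15A, which was not called higher.

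XBP1, the transcription factor downstream of IRE1, read 1772, 1524, 1979 and 1907 with vehicle at 6 h, 2025, 2096, 2888 and 2510 with Ind/GSK, and 2298, 2226, 2637 and 2123 with GS-5759. All treated arrays were above all vehicle arrays. The differences of 0.40 ± 0.15 and 0.37 ± 0.15 were called with the block (adjusted p = 0.0042 and 0.012) and not without it (0.123 and 0.237). The array measures total XBP1 RNA and not its splicing. ATF6, another ER sensor, was not called in any comparison with vehicle in either fit. WFS1, a calcium-handling protein of the ER membrane, went the other way at 6 h, at -0.26 with Ind/GSK and -0.18 with GS-5759 (block adjusted p = 0.00071 and 0.028, not called without the block). Without replicate 3 the difference with Ind/GSK was called, at -0.24 (adjusted p = 0.0418).

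**Figure D2:**
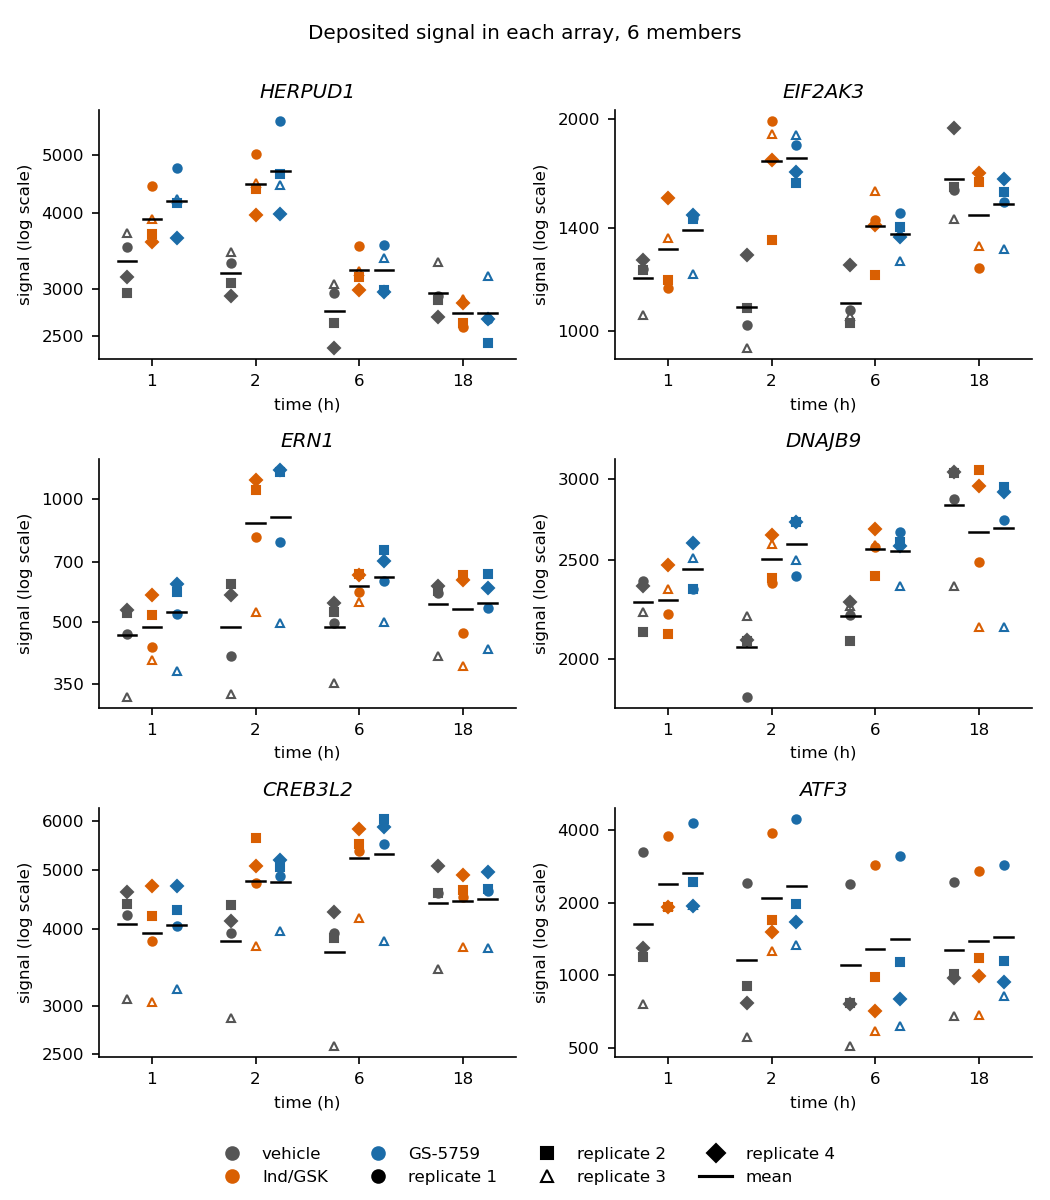
Deposited signal (log axis) of HERPUD1, EIF2AK3, ERN1, DNAJB9, CREB3L2 and ATF3 in each of the 48 arrays against time, coloured by treatment, with a marker for each replicate number (replicate 3 as open triangles) and a bar at the mean of 4. HERPUD1, EIF2AK3 and DNAJB9 separate from vehicle at 2 h, ERN1 and CREB3L2 do so within each replicate with replicate 3 lowest, and ATF3 is highest in replicate 1 in every group.

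Among the 14 chaperones and folding factors, DNAJB9 (ERdj4), an ER co-chaperone, alone was called against vehicle without the block, over all 4 times. At 2 h it read 1835, 2081, 2201 and 2086 with vehicle, 2371, 2396, 2592 and 2642 with Ind/GSK, and 2407, 2719, 2498 and 2722 with GS-5759. All treated arrays lay above the vehicle arrays. The difference was 0.33 ± 0.089 with GS-5759 (adjusted p = 0.0251) and 0.29 ± 0.089 with Ind/GSK (adjusted p = 0.0564, and 0.011 with the block). The GS-5759 call was lost without vehicle replicate 1 (adjusted p = 0.13) or 2 (0.05002), or GS-5759 replicate 2 (0.0836) or 4 (0.0882), and without replicate 3 the difference with Ind/GSK was called too (adjusted p = 0.0224). Both other DNAJB9 probe sets were higher at 2 h, by 0.26 to 0.56. At 6 h DNAJB9 was higher in 4 of 4 replicates with either treatment, by 0.22 with Ind/GSK (adjusted p = 0.178; 0.046 in the blocked fit) and by 0.21 after GS-5759 (0.285; 0.078 in the blocked fit). The chaperones as a list had a median of -0.01 with Ind/GSK and 0.01 with GS-5759 at 2 h, ranging from -0.14 to 0.29 and from -0.06 to 0.33.

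HSPA5, whose promoter carries the ER stress element, read 7717, 6964, 8894 and 7847 with vehicle at 2 h, 7242, 6162, 7959 and 7533 with Ind/GSK, and 7539, 7019, 8629 and 7814 with GS-5759, and the groups overlapped. It was called with a treatment once, at 6 h with GS-5759 and with the block, by 0.16 (adjusted p = 0.039), together with DNAJC3, an inhibitor of PERK and co-chaperone of BiP, by 0.22 (adjusted p = 0.035). CANX and PDIA6, a lectin chaperone and a disulfide isomerase, fell with Ind/GSK at 2 h in the block fit, by 0.09 (adjusted p = 0.047) and 0.14 (adjusted p = 0.011), and CANX turned to 0.01 with quantile normalization. CALR, PDIA3, DNAJB11, SDF2L1, MANF and CRELD2 were not called with either treatment at any time in either fit.

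In the integrated stress response core, ATF3 had the largest differences and also the widest spread between replicates. At 2 h its signal was 2422, 900, 557 and 770 with vehicle, 3905, 1704, 1262 and 1521 with Ind/GSK, and 4446, 1983, 1331 and 1663 with GS-5759. Replicate 1 was the highest in each group, so that the groups overlapped, yet each treated array was above the vehicle array of its number, by 0.69 to 1.16 with Ind/GSK and 0.87 to 1.23 with GS-5759. The mean differences were 0.93 ± 0.56 and 1.08 ± 0.56 (adjusted p = 0.483 and 0.437), and with the block the adjusted p was 2.8e-06 and 1.2e-07. At 1 h the differences were 0.70 and 0.83 (adjusted p = 0.501 and 1, and 0.00061 and 6.8e-05 with the block), and at 6 h 0.18 and 0.32, not called in either fit. The better of its other probe sets was higher by 0.79 and 0.96 at 2 h.

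ATF4, the central transcription factor of the integrated stress response, was not called higher against vehicle in either fit. At 2 h it read 4463, 3798, 5034 and 3742 with vehicle, 3851, 3363, 4308 and 3215 with Ind/GSK, and 4076, 3581, 4270 and 3471 with GS-5759. With Ind/GSK it was lower in 4 of 4 replicates at 1 h and 2 h, by 0.18 and 0.21 on average, called with the block (adjusted p = 0.031 and 0.016) and not without it (0.412 and 0.45). PPP1R15A (GADD34), the stress-induced phosphatase subunit that reverses eIF2 alpha phosphorylation, was lower with Ind/GSK by 0.31 at 1 h and 0.28 at 6 h (block adjusted p = 0.0094 and 0.014, not called without the block). The 1 h differences of ATF4 and PPP1R15A stand beside a median of -0.11 for all tested genes, in arrays that were dimmer as a whole. EIF2S1 was lower with Ind/GSK at 6 h by 0.17 (block adjusted p = 0.023). DDIT3 and PPP1R15B, the constitutive phosphatase subunit, were not called with either treatment in either fit; at 2 h DDIT3 averaged 454 ± 118 with vehicle, 425 ± 120 with Ind/GSK and 470 ± 149 with GS-5759.

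Few downstream genes of amino acid supply and growth control were called. ASNS (asparagine synthetase), PSAT1 and PHGDH (serine synthesis) were not called with either treatment in either fit. SESN2, a stress-induced inhibitor of mTORC1 signalling, was called once. With Ind/GSK at 1 h it was lower by 0.22 with the block (adjusted p = 0.027), beside a median of -0.11 for all tested genes. DDIT4, another inhibitor of mTORC1 signalling, was higher at 1 h in 4 of 4 replicates with both treatments, by 0.29 ± 0.19 and 0.34 ± 0.19, not called in either fit over 4 replicates. Without replicate 3 it was called at 1 h, by 0.28 and 0.35 (adjusted p = 0.0482 and 0.0358), beside 3.24% and 0.472% of all genes called. CHAC1, below the filter and not tested in the main fit, read 143, 156, 167 and 117 with vehicle at 2 h, 102, 141, 88 and 105 with Ind/GSK, and 123, 133, 55 and 92 with GS-5759.

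How the response moved in time was read from the mean of both treatments' differences from vehicle. Unblocked, 0 of 34 members were called between 1 h and 2 h (0.270% of all genes called; 3 members at an unadjusted p under 0.05), 0 between 2 h and 6 h (0.708%; 2 members) and 0 between 6 h and 18 h (0.556%; 8 members). With the block, the response of ERN1, EIF2AK3 and CREB3L2 grew from 1 h to 2 h, by 0.70, 0.51 and 0.35 (adjusted p = 0.00021, 0.014 and 0.00031), 3 of 34 against 2.60% of all genes called higher. From 2 h to 6 h the difference from vehicle fell in 4 members and rose in 2 with the block. The shares of all genes were 3.69% and 2.97%. It fell for ATF3, ERN1, HERPUD1 and WFS1, by 0.76, 0.45, 0.29 and 0.24, and rose for CREB3L2 and HSPA5, by 0.20 and 0.21. HSPA5 had lain below vehicle at 2 h, at -0.12 with Ind/GSK and -0.02 with GS-5759. From 2 h to 6 h its mean log2 signal went from 12.937 to 12.69 with vehicle, 12.815 to 12.805 with Ind/GSK and 12.919 to 12.849 with GS-5759. From 6 h to 18 h the difference fell in 7 members and rose in 1 with the block (3.53% and 3.92% of all genes). It fell for CREB3L2 and XBP1 by 0.51 each, EIF2AK3 by 0.48, ERN1 by 0.40, HERPUD1 by 0.33, EDEM1 by 0.31 and HSPA5 by 0.26. It rose for WFS1, by 0.24. The vehicle means of the 7 rose over this step and that of WFS1 fell. With both treatments the means of XBP1, EIF2AK3 and HSPA5 also rose, while those of CREB3L2, ERN1, HERPUD1 and EDEM1 fell. For XBP1 the mean log2 signal went from 10.816 to 11.54 with vehicle, 11.211 to 11.382 with Ind/GSK and 11.186 to 11.436 with GS-5759. Without replicate 3, ERN1 was also called without the block from 1 h to 2 h, by 0.82 (adjusted p = 0.0393), and CREB3L2 from 6 h to 18 h, at -0.51 (adjusted p = 0.00244).

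GS-5759 and Ind/GSK were compared directly at matched times, in 34 members at each of 4 times. GS-5759 is given at the same 10 nM as each partner of the combination. In the unblocked and the blocked fit 0 members were called at any single time, as were 0% of all tested genes, and 0 members had an unadjusted p under 0.05 without the block. With the block, 8, 1, 3 and 0 members had an unadjusted p under 0.05 at 1, 2, 6 and 18 h. At 2 h the difference, GS-5759 minus Ind/GSK, was 0.06 for HERPUD1 (95% interval -0.14 to 0.26), 0.02 for EIF2AK3 (-0.21 to 0.26), 0.02 for ERN1 (-0.46 to 0.50), 0.05 for DNAJB9 (-0.13 to 0.23) and 0.15 for ATF3 (-0.99 to 1.29). For CREB3L2 at 6 h it was 0.01 (-0.33 to 0.36). Within replicate numbers the ERN1 difference was -0.05, 0.14, -0.09 and 0.08 and that of ATF3 0.19, 0.22, 0.08 and 0.13, above 0 in 4 of 4. With the block the intervals were -0.18 to 0.22 for ERN1, -0.12 to 0.42 for ATF3 and, at 6 h, -0.09 to 0.12 for CREB3L2. Over the 4 times together 0 members were called without the block (0.0759% of all genes; 3 members at an unadjusted p under 0.05) and 6 were higher with it (HSPA5, HYOU1, CANX, PDIA6, PPP1R15A and SESN2, by 0.05 to 0.14; 18.8% of all genes higher). The median over all tested genes was 0.06 in that comparison and fell to -0.01 with 75th percentile centring, under which 8 of 34 members lay above 0 in place of 34.

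Vehicle cultures themselves changed from 6 h to 18 h, and more members were called there than in any comparison with a treatment. Without the block 7 of 34 members rose and 2 fell, against 9.79% and 4.36% of all tested genes, and the members' median was 0.18 beside 0.03 for all genes. With the block 19 rose and 3 fell, against 23.3% and 11.0%. The 7 were the chaperones HSPA5, DNAJB9, DNAJB11, PDIA4 and MANF and the regulators EIF2AK3 and XBP1, and the 2 that fell were EIF2S1 and DDIT4. All 14 chaperones and folding factors lay above 0 unblocked, from 0.01 to 0.35 with a median of 0.16, and 10 of them were called with the block. With centring on the 75th percentile or with quantile normalization the members' median was 0.12, with 26 of 34 above 0 in each.

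**Figure D3:**
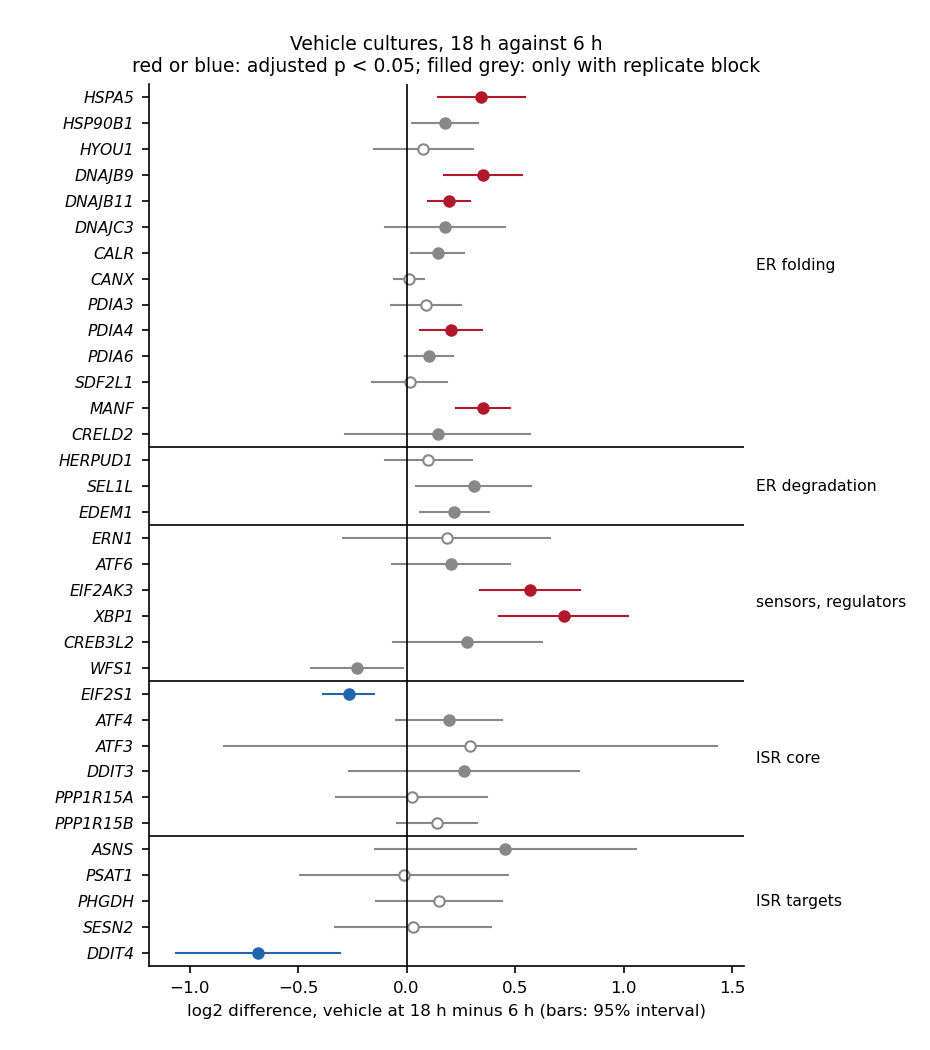
Log2 difference of vehicle at 18 h minus vehicle at 6 h (points) with its 95% interval (bars, 4 arrays a group) for the 34 tested members, by role. Red marks the 7 called higher, blue the 2 called lower, and filled grey the genes called only with the replicate block; XBP1 and EIF2AK3 lie farthest right and DDIT4 farthest left.

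XBP1 read 1772, 1524, 1979 and 1907 at 6 h and 2942, 2680, 2909 and 3355 at 18 h, with no overlap and a difference of 0.72 ± 0.15 (adjusted p = 0.000601). The 6 h vehicle values were the low point of its course, since it read 2624, 2209, 2988 and 2842 at 1 h and 2132, 2047, 2784 and 2477 at 2 h. EIF2AK3 went from 1072, 1028, 1052 and 1240 to 1585, 1600, 1443 and 1937 (0.57 ± 0.11, adjusted p = 0.000557), also without overlap. Averaging its probe sets reduced the difference to 0.19 and ended the call (adjusted p = 0.23). The 18 h vehicle level of EIF2AK3, 1641 ± 210, was near its 2 h levels with treatment, 1744 ± 282 and 1757 ± 130. MANF, a secreted ER-stress-induced factor, went from 4238, 4057, 4382 and 4508 to 5636, 5514, 5614 and 5193 (0.35 ± 0.061, adjusted p = 8.32e-05), and its groups did not overlap.

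HSPA5 read 6703, 5765, 7419 and 6592 at 6 h and 8455, 7724, 9463 and 7962 at 18 h (0.34 ± 0.099, adjusted p = 0.0145). Its call was lost without vehicle 6 h replicate 2 (adjusted p = 0.0848) or vehicle 18 h replicate 3 (0.0662). DNAJB9 read 2208, 2079, 2251 and 2271, then 2865, 3038, 2355 and 3046, with replicate 3 the lowest at 18 h (0.35 ± 0.089, adjusted p = 0.00546). DNAJB11, another co-chaperone of BiP, was higher by 0.19 ± 0.047 (adjusted p = 0.00387), from 4318, 3980, 4161 and 4419 to 4963, 4791, 4840 and 4716. PDIA4, a disulfide isomerase, was higher by 0.20 ± 0.071 (adjusted p = 0.0484), from 3116, 3204, 3227 and 3605 to 3540, 3778, 3748 and 4098, with overlap. Its call was lost without vehicle 6 h replicate 1 (0.135), 2 (0.113) or 3 (0.0968), or vehicle 18 h replicate 2 (0.0832), 3 (0.0693) or 4 (0.184). It was also lost without all replicate 3 arrays (0.118), with 75th percentile centring (0.134), no filter (0.0818), averaging of probe sets (0.134) and a filter at the 40th percentile of all probe sets (0.0576). Without replicate 3, WFS1 was called lower, at -0.27 (adjusted p = 0.00669), and CREB3L2 higher, by 0.24 (0.0254). Fitting the 8 vehicle arrays of both times alone left XBP1, MANF, EIF2AK3 and DDIT4 called. For the other 7 genes called here, leaving out any 1 array of these groups ended no call.

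DDIT4 fell from 7103, 6700, 7192 and 7040 at 6 h to 3875, 3837, 6499 and 3696 at 18 h. Replicates 1, 2 and 4 lost 0.80 to 0.93 on the log2 scale and replicate 3 lost 0.15. The mean difference was -0.69 ± 0.19 (adjusted p = 0.0094), and -0.87 without replicate 3 (adjusted p = 3.48e-08). EIF2S1 fell from 4155, 3645, 3804 and 4249 to 3223, 3271, 3214 and 3427, at -0.27 ± 0.057 (adjusted p = 0.00105), with no overlap. DDIT4 at 18 h was not called with either treatment, with means of 5020 ± 1905 and 4882 ± 1714 beside 4477 ± 1350 with vehicle, and replicate 3 was the highest array in each.

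At the earlier steps of the vehicle course 0 members were called without the block: from 1 h to 2 h 2.72% of all genes were called and 1 member had an unadjusted p under 0.05, and from 2 h to 6 h 0.413% and 4 members. With the block 6 fell from 1 h to 2 h (HYOU1, EDEM1, WFS1, ATF3, PPP1R15A and SESN2, by 0.15 to 0.50; 15.2% of all genes lower), and with 75th percentile centring all 6 stayed below 0, while 18 of 34 members lay above 0 in place of 8. Without replicate 3 DDIT4 was called without the block from 1 h to 2 h, higher by 0.31 (adjusted p = 0.0219; 5.47% of all genes called). With the block 4 fell from 2 h to 6 h (HSPA5, HERPUD1, EDEM1 and XBP1, by 0.20 to 0.39; 1.92% of all genes lower). All of these were also called higher than vehicle at 6 h in the block fit, HSPA5 with GS-5759 alone and the others with both treatments. Their 6 h comparisons are therefore with a vehicle level below that at 2 h. The 6 h treated means of XBP1, 2380 ± 401 and 2321 ± 222, lay near its 2 h vehicle mean of 2360 ± 339.

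Differences between replicate numbers were called in more members than those of any treatment or time comparison above. In a model of group and replicate number, 31 of 34 members differed between replicate numbers (limma F test), as did 78.0% of all tested genes, and CANX, SDF2L1 and EIF2S1 did not pass. ASNS averaged 2125 ± 651 (SD, n = 12) over the replicate 3 arrays, against 1100 ± 160 to 1494 ± 294 in the other replicates, and PSAT1 averaged 5433 ± 732 against 3278 ± 266 to 3939 ± 465. CRELD2, a secreted ER chaperone-like protein, averaged 3112 ± 180 in replicate 3 against 1994 ± 159 to 2274 ± 306. ERN1 and CREB3L2 lay the other way, at 424 ± 78 against 561 ± 128 to 698 ± 215 and at 3448 ± 492 against 4519 ± 554 to 4943 ± 531. ATF3 separated replicate 1, with 3212 ± 729 against 976 ± 525 to 1363 ± 517, and so did DDIT3, with 668 ± 123 against 388 ± 61 to 526 ± 54. The keratin difference of replicate 3 given above runs with the first of these patterns and not with the second, and its part was not tested.

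**Figure D4:**
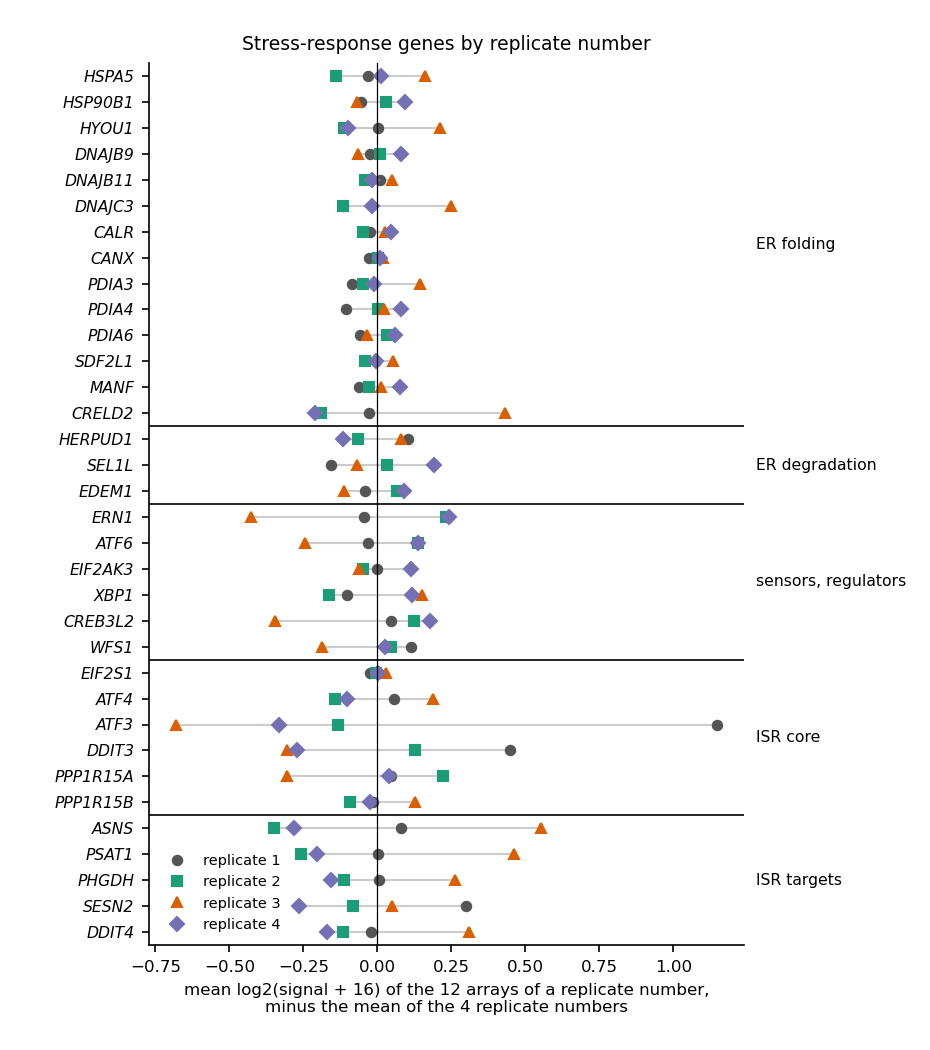
Mean log2(signal + 16) of the 12 arrays of each replicate number minus the mean of the 4 replicate numbers (horizontal axis) for the 34 tested members, by role; the grey line spans the 4. Replicate 3 (triangles) is highest for ASNS, PSAT1 and CRELD2 and lowest for ERN1 and CREB3L2, and replicate 1 (circles) is highest for ATF3 and DDIT3.

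After the group means were taken out, arrays with high ASNS also had high PSAT1 (r = 0.96 over 48 arrays, which share the replicate differences and are described here without a test). The 5 tested integrated stress response targets had a median pairwise r of 0.77 over 10 pairs, the chaperones 0.37 over 91 pairs, and the core factors -0.03 over 15 pairs. All 561 member pairs had a median of 0.05. CRELD2 and CREB3L2 ran opposite, at r = -0.93, and ATF3 and DDIT3 together, at 0.86.

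Of 85 other genes listed for the same pathways, 76 were tested. At 2 h CEBPB, a transcription factor that partners with ATF4, rose by 0.44 ± 0.12 with Ind/GSK (adjusted p = 0.0186) and 0.55 ± 0.12 with GS-5759 (adjusted p = 0.00268). SLC7A1, a cationic amino acid transporter, rose by 0.38 ± 0.085 and 0.39 ± 0.085 (adjusted p = 0.00457 and 0.00427), and JDP2, a bZIP repressor, by 0.34 ± 0.099 with GS-5759 (adjusted p = 0.0443). These were 2 and 3 of the 76, or 2.63% and 3.95%, beside 1.69% and 1.97% of all genes, and 0 fell. TRIB3, a pseudokinase widely used as a marker of ATF4 and CHOP activity, fell by 0.31 ± 0.067 with Ind/GSK at 6 h (adjusted p = 0.00385), the single call of the 76 at that time (3.73% of all genes were lower), and 0 of the 76 were called with GS-5759 at 6 h or with either treatment at 1 h and 18 h. In vehicle from 6 h to 18 h 9 rose and 2 fell, or 11.8% and 2.63%, beside 9.79% and 4.36% of all genes, and the largest of these were SEC24D, a coat protein of ER export, by 0.90 ± 0.22, SLC7A11, the cystine transporter, at -0.83 ± 0.26, ERO1B, an ER oxidase, by 0.81 ± 0.15, and VLDLR, a lipoprotein receptor, by 0.80 ± 0.12 (adjusted p = 0.00444, 0.028, 0.000195 and 8.27e-06).

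Genes known to answer cyclic AMP did so in the same arrays: at 2 h NR4A1 rose by 1.91 ± 0.33 and 2.03 ± 0.33 with Ind/GSK and GS-5759, SIK1 by 2.58 ± 0.38 and 2.74 ± 0.38, PDE4D by 2.41 ± 0.44 and 2.43 ± 0.44, and CREM by 0.43 ± 0.11 and 0.47 ± 0.11 (all with adjusted p of at most 0.0196). The largest difference from vehicle called among members without the block, 0.84 for ERN1, was below those of NR4A1, SIK1 and PDE4D and above that of CREM. DNAJB1, a cytosolic heat shock co-chaperone, fell at 2 h by 0.30 ± 0.061 and 0.23 ± 0.061 (adjusted p = 0.00137 and 0.0251). Of all tested genes 2.81% and 1.08% were called lower. DNAJB1 is a single gene of a longer list of cytosolic heat shock genes, whose other members are not described here.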

How the data were processed

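RNA from BEAS-2B cells was hybridised to Affymetrix U133 Plus 2.0 arrays, 48 in all, 12 groups of 4. The deposited values are intensity values (signals), 1 per probe set on a linear scale. The submitters' processing notes name PLIER and the software Expression Console, and their versions are not given in the sources used here. Of 54675 probe sets, 41091 carried 1 gene symbol, 1801 several and 11721 none (62 controls were left out). For each gene the probe set with the highest mean log2(value + 16) over all arrays was kept (19775 genes), and genes above the 40th percentile of means (log2 7.41) were tested (11865). A limma 3.58.1 (R 4.3.3) fit of 12 group means, with empirical Bayes (36 residual and 2.36 prior degrees of freedom), gave each comparison, and p-values were Benjamini-Hochberg adjusted over all tested genes, with 0.05 as the threshold. The number of arrays limits the precision. No between-array scaling was added.

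Replicate numbers come from the sample titles. Same-numbered arrays deviated together in 264 of 264 pairs (correlation of deviations from group means, lowest 0.22, median 0.77, required 0.1), so the fit with the number as a block is printed where it changes a call. Alternatives were 75th percentile centring, quantile normalization, a pseudocount of 1, no filter and a 60th percentile filter, mean over probe sets, the compared groups alone, the block, and leaving out each array. All members are accounted for, by role. For members called without the block over all replicates, each array's value is given in the groups of the called comparison. Of other pathway genes up to 4 called per comparison are given. The members and lists were chosen with earlier results of these data known. The unblocked fit was tested on simulated data with independent noise and no replicate differences. That simulation cannot show how the replicate differences of these arrays affect the calls. Motifs were searched on both strands (Python 3.11.15), and figures drawn with matplotlib 3.10.9.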

Additional observations from a re-analysis of the deposited data

Results flagged for a closer look

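Across 12 members and 12 groups, 144 sets of 4 arrays were screened for an array far from the other 3, by a ratio of gap to range above Dixon's 95% critical value. Chance alone flags about 1 in 20 such sets, and 7 were found. DDIT4, an inhibitor of mTORC1 signalling, gave 3 of them, all replicate 3 at 18 h: 6498.7 with vehicle where the other arrays read 3696 to 3875, 7868.7 with Ind/GSK where they read 3860 to 4190, and 7442.4 with GS-5759 where they read 3810 to 4153. Replicate 3 was also the outlying array for ERN1 with vehicle at 18 h (410.42, others 588 to 610), for EIF2AK3 with GS-5759 at 1 h (1204.6, others 1443 to 1463) and for DNAJB11 with Ind/GSK at 2 h (4664.2, others 4155 to 4168). The other one, DNAJB11 with Ind/GSK at 6 h, was replicate 4 (4174.9, others 4266 to 4280). No explanation of these values was tested.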

How the results depend on the processing

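The replicate block raised the count of called members in Ind/GSK against vehicle to 11 at 1 h, 10 at 2 h and 10 at 6 h, in GS-5759 against vehicle to 2, 7 and 9, and in GS-5759 against Ind/GSK over 4 times to 6. It gave 6, 4 and 22 for the vehicle steps to 2 h, 6 h and 18 h and 3, 6 and 8 for the change of the mean response at the same steps. It changed no other call count by over 1.5 times. With replicates 1, 2 and 4 alone, chosen after seeing the data, the counts were 1, 5 and 2 for Ind/GSK and 1 and 2 for GS-5759 at 1 h and 6 h, 1 for vehicle to 2 h, and 1 each for the change of response to 2 h and to 18 h. The shares of all genes called there were 3.24%, 3.15% and 4.36% for Ind/GSK and 0.472% and 2.03% for GS-5759. They were 5.47% for vehicle to 2 h, and 0.480% and 0.834% for the change of response. The same replicates with the block, also chosen after seeing the data, gave 11, 6 and 9 for Ind/GSK, 3 and 6 for GS-5759 at 1 h and 6 h, 8, 3 and 17 for vehicle, and 4, 3 and 5 for the change of response. In the same order, the shares of all genes were 20.4%, 7.49% and 14.3% for Ind/GSK and 1.33% and 7.15% for GS-5759. They were 18.6%, 6.09% and 29.1% for vehicle, and 2.81%, 3.78% and 4.16% for the change of response.

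At 6 h, 75th percentile centring called 2 members with Ind/GSK and 0 with GS-5759, quantile normalization 3 and 0, no filter 0 with GS-5759, the 60th percentile filter 1 with Ind/GSK, and a filter at the 40th percentile of all probe sets, added after seeing the data, 0 with GS-5759. Averaging probe sets called 0 members with Ind/GSK at 2 h and 2 and 0 with GS-5759 at 2 h and 6 h. Fitting the compared groups alone called 0 with Ind/GSK at 2 h, 1 and 0 with GS-5759 at 2 h and 6 h, and 4 in vehicle to 18 h; fewer arrays enter that fit. The cause of the other shifts was not tested. No difference changed sign among the members called without the block.

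Leaving out 1 array at a time gave 2 to 4 members for GS-5759 at 2 h, 2 (HERPUD1 and EIF2AK3) without vehicle replicate 1 or GS-5759 replicate 2 or 4. It gave 0 to 2 for GS-5759 at 6 h, 0 to 2 for Ind/GSK at 6 h (2 without vehicle replicate 2, 1 without Ind/GSK replicate 2), and 0 to 1 for the change of response to 2 h (1 without vehicle 2 h replicate 4 or Ind/GSK 2 h replicate 2). For Ind/GSK at 2 h the range was 2 to 3, and for vehicle to 18 h 8 to 10. CHAC1 lay below the signal filter of the main fit and was not tested there. It did enter the fit with the lower filter added after seeing the data, which cut at a signal of 75.4. Its result in that fit is not described here.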
